A study of Mus musculus with 9 samples.

Results

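The report covers 9 genes used to recognize microglia and their activation in brain tissue. They were taken as a list of names that was drawn up with earlier results of these data known. Cx3cr1, P2ry12, Tmem119 and Csf1r mark microglial identity, and Aif1, Trem2, Tyrobp, Cd68 and Cd86 are read as signs of activation. Aif1, Trem2 and Tyrobp are also markers of microglia as such, so a higher level of them need not mean activation. Each of the 9 had 1 row among the 53465 genes of the count table, and all 9 were among the 18501 genes that passed the filter on low counts. They were measured by RNA-seq of whole brain in 9 male C57BL/6 mice, aged 7 weeks at the start, with 1 library per mouse and 3 mice in each of the groups CON, DNP and BAC. CON mice received saline. DNP (diabetic neuropathic pain) mice ate a diet with 60% of fat for 4 weeks, then were injected with streptozotocin, a toxin of the insulin-producing beta cells, at 50 mg/kg on each of 7 days, and later received saline. BAC mice went through the same diet and streptozotocin and were then injected over 7 days with 8 mg/kg of baclofen, which activates GABA-B receptors. DNP and BAC mice thus share the diet, the toxin and the diabetic state, and a mouse was entered into the model on its blood glucose and pain thresholds.

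Microglia are the resident macrophages of the brain parenchyma. They depend on signaling through the receptor Csf1r, sense nucleotides through P2ry12 and neuron-derived fractalkine through Cx3cr1, and are known as the cells that survey synapses and take up debris. After injury or in disease they lower the genes of this resting, or homeostatic, state and raise genes of phagocytosis, lipid handling and antigen presentation, a switch in which the receptor Trem2 and its adaptor Tyrobp take part.

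The members lie on separate stretches of the genome (build GRCm38, GENCODE M21 annotation). P2ry12 spans chr3:59216272-59262871 on the minus strand, Tmem119 chr5:113793729-113800516 on the minus strand, Tyrobp chr7:30413760-30417585 on the plus strand, and Cd68 chr11:69664213-69666153 on the minus strand. Cd86 spans chr16:36603869-36666081 on the minus strand, Aif1 chr17:35170991-35176068 on the minus strand, and Trem2 chr17:48346401-48354147 on the plus strand. The annotated gene of Cx3cr1, chr9:119901616-120069879 on the minus strand, is 168264 bases long for 4505 bases of exon. The libraries did not keep strand, so reads from exons shared with a gene on the opposite strand cannot be told apart. Such shared exon sequence was 873 bases between Csf1r and Hmgxb3, 9 bases between P2ry12 and Med12l and 78 bases between Cx3cr1 and Gm33858, and the other 6 members shared none.

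Stretches of 250 bases before the transcription start were read from RefSeq (GRCm38.p6) for 5 of the 9 members, and those of 4 are shown for the contrast in the levels described below, where Aif1, Trem2 and Cd68 varied together across the libraries and Cx3cr1 did not. Capitals mark the letters GAGGAA or, for the other strand, TTCCTC, a form of the purine-rich box of the myeloid transcription factor PU.1. The windows are chr17:35176053-35176302 (minus strand) for Aif1, chr17:48346151-48346400 (plus strand) for Trem2, chr11:69666171-69666420 (minus strand) for Cd68 and chr9:120068297-120068546 (minus strand) for Cx3cr1.
Aif1: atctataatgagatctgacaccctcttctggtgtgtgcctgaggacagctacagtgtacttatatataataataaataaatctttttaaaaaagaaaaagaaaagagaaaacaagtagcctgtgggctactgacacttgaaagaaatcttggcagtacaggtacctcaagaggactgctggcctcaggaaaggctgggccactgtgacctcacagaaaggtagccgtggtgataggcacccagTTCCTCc
Trem2: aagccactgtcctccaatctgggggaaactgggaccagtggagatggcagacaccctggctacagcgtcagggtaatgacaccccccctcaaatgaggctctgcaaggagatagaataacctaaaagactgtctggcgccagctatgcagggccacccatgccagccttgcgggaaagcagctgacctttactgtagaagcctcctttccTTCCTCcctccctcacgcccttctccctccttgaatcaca
Cd68: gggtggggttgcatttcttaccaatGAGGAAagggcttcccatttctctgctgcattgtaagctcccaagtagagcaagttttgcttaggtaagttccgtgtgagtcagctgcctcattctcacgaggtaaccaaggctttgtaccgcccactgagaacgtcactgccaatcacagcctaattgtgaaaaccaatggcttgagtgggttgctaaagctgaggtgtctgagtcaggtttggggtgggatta
Cx3cr1: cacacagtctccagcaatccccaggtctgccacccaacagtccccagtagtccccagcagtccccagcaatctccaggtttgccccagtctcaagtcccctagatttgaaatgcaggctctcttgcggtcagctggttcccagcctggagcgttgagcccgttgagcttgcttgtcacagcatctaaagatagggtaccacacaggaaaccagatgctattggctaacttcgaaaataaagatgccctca
The letters occur 7 to 2 bases before the start of Aif1, 40 to 35 bases before that of Trem2 and 225 to 220 bases before that of Cd68. They occur neither in the window of Cx3cr1 nor in that of P2ry12, chr3:59262986-59263235. The Cx3cr1 window lies inside the annotated gene, so it precedes the RefSeq start used and not the outermost annotated start. Windows of other starts of Cx3cr1 were not read. Of the 32851 promoter windows of this length in the table, 23.25% hold these letters on either strand, so a match in 3 of 5 windows is a description of the sequence only.

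The libraries held 13107382 to 16008129 counts on genes, and the biological coefficient of variation over all genes was 36.5%. The libraries also differed in how much of each brain region they held, within the groups as well as between them. The summed level of 10 cerebellar markers ranged from 154.1 to 6587 CPM (counts scaled to the library total and its TMM factor) in CON, from 128.7 to 637.3 in DNP and from 132.4 to 3269 in BAC. Counts of Fat2, a marker of cerebellar granule cells, were 3 and 0 in DNP replicates 2 and 3 and 3 in BAC replicate 2, although the tissue is labelled as whole brain. The summed level of 10 brainstem and spinal cord markers was 350.2 CPM or more in DNP replicate 1 and in BAC replicates 1 and 3, and at most 29.46 CPM in the other 6 libraries. CON replicate 2 had the highest cerebellar sum and BAC replicate 1 the next, and each had the lowest level in its group of 15 other genes of homeostatic microglia, none of them a member. The fold changes of the members, the gene list counts and the values relative to the homeostatic list are therefore also given without these 2 libraries, a choice made after the values were seen. Mitochondrial genes took 4.34% to 5.36% of the counts in CON, 6.68% to 7.01% in DNP and 5.94% to 7.23% in BAC, so this share was higher in each diabetic library than in each CON library.

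In the deposited FPKM values (fragments scaled by a gene length and the library total), Csf1r had the highest level and Cd86 the lowest. The lengths behind these values exceed the annotated exon bases, by little for Csf1r and by much for P2ry12. The order of the genes below thus holds for the deposited lengths only. In FPKM, Csf1r was at 13.9 ± 3.52 (SD, n = 9 mice), Tmem119 at 7.01 ± 1.69 and Tyrobp, the adaptor of Trem2, at 5.77 ± 1.58. Lower FPKM levels were seen for Cd68, a lysosomal glycoprotein of phagocytes (2.82 ± 0.932), Cx3cr1 (2.46 ± 1.84), Trem2 (2.14 ± 0.718) and P2ry12 (1.89 ± 0.618). Aif1, which encodes the calcium-binding protein IBA1, had 1.07 ± 0.431 FPKM and Cd86, a co-stimulatory ligand of T cells, 0.353 ± 0.123. Csf1r lay above Tmem119, Tyrobp above Cd68, P2ry12 above Aif1 and Aif1 above Cd86 in 9 of 9 libraries, and Tmem119 above Tyrobp in 8 of 9. Cd68, Cx3cr1, Trem2 and P2ry12 could not be ordered within their spread, since neighbors in this order kept it in 6, 3 and 6 of 9 libraries.

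**Figure D1:**
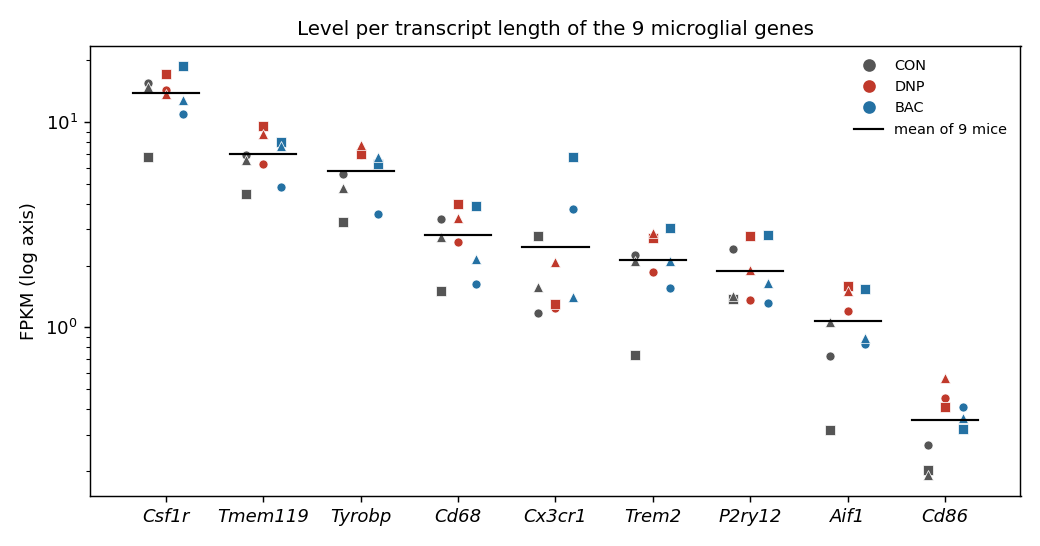
FPKM of the 9 genes on a log axis, ordered by their mean; circles, squares and triangles are replicates 1, 2 and 3 of each group, and the black line is the mean of 9 mice. Csf1r, at 13.9 FPKM, stood highest and Cd86, at 0.353 FPKM, lowest, and the 4 genes from Cd68 to P2ry12 overlapped.

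Among the identity genes, no separation of the groups was seen. Counts of P2ry12, the purinergic receptor that guides microglial processes toward ATP, were 341, 168 and 185 in CON, 166, 360 and 253 in DNP and 153, 368 and 226 in BAC replicates 1, 2 and 3. Counts of Tmem119, a membrane protein that sets microglia apart from other macrophages, were 286, 160 and 248 in CON, 223, 362 and 340 in DNP and 164, 306 and 306 in BAC. Csf1r, the receptor for the survival factors Csf1 and Il34, had counts of 1458, 550 and 1278 in CON, 1167, 1480 and 1214 in DNP and 846, 1625 and 1157 in BAC. For these 3 genes the ranges of the groups overlapped, and the SD within a group was 12.3% to 40.6% of its mean FPKM. CON replicate 2 and BAC replicate 1 were the lowest of their groups for each of the 3. Cx3cr1 behaved differently, with counts of 146, 301 and 179 in CON, 132, 148 and 242 in DNP and 384, 776 and 168 in BAC. Its highest values were those of BAC replicates 2 and 1, while BAC replicate 3 lay among the CON and DNP mice.

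Among the genes grouped here as activation genes, 3 lay higher in DNP than in CON without overlap, as did 9.59% of all genes tested. Of these 3, Aif1 and Tyrobp are also markers of microglia as such. Counts of Cd86 were 20, 13 and 13 in CON, 29, 28 and 40 in DNP and 25, 22 and 26 in BAC, so each diabetic mouse had more than each CON mouse. Counts of Aif1 were 37, 14 and 50 in CON, 53, 75 and 73 in DNP and 35, 73 and 44 in BAC, and those of Tyrobp were 117, 59 and 91 in CON, 124, 133 and 152 in DNP and 61, 120 and 136 in BAC. For both, the 3 DNP mice lay above the 3 CON mice and the BAC mice were spread over the 2 ranges. Counts of Trem2, the lipid-sensing receptor of microglia, were 221, 62 and 188 in CON, 158, 243 and 267 in DNP and 125, 276 and 199 in BAC, and those of Cd68 were 112, 43 and 84 in CON, 74, 121 and 107 in DNP and 44, 120 and 69 in BAC. Trem2 and Cd68 overlapped between the groups, with their lowest value in CON replicate 2.

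**Figure D2:**
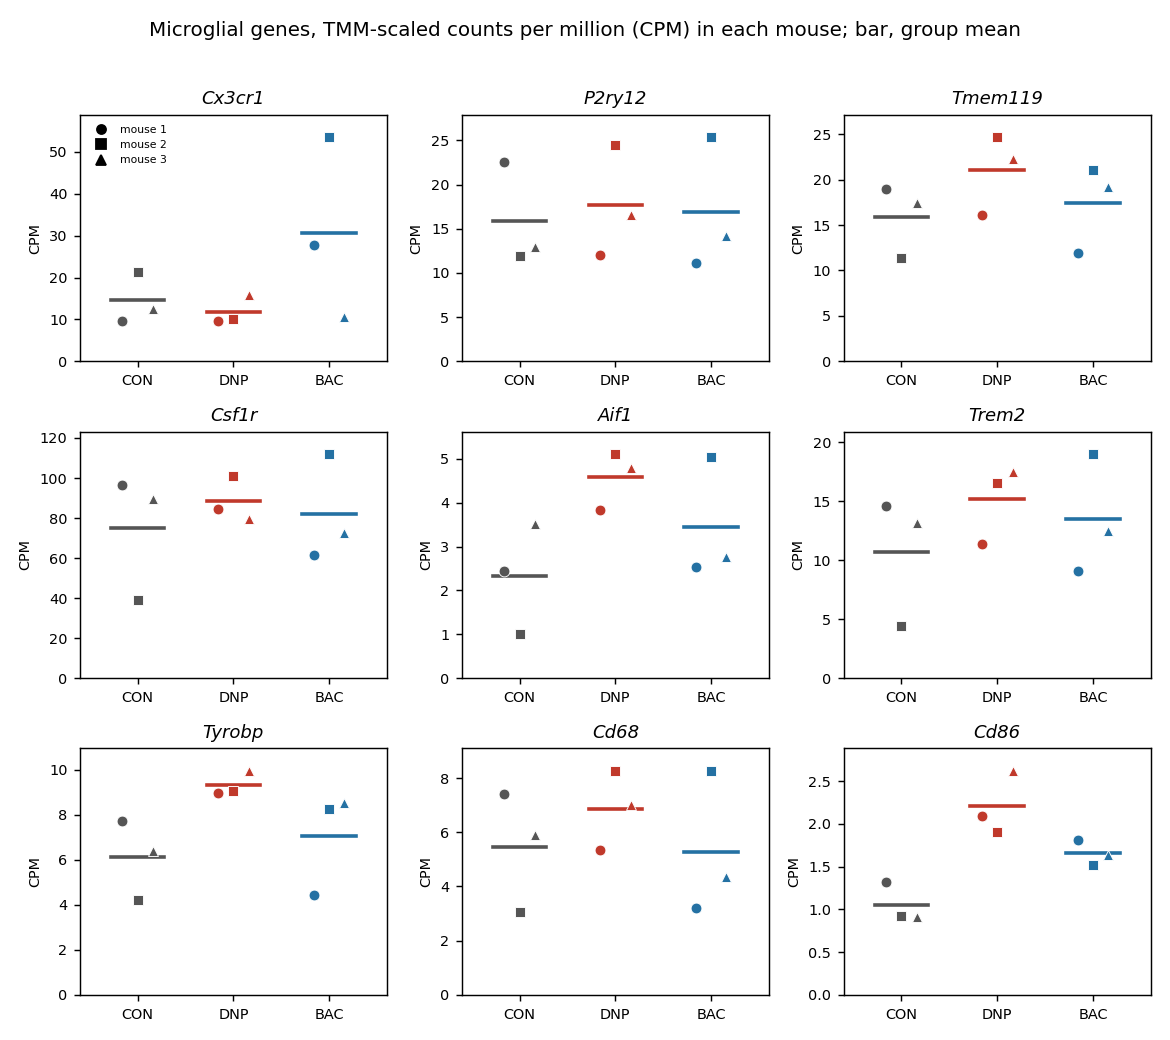
TMM-scaled CPM of each gene (vertical axes start at 0) in CON, DNP and BAC, 1 point per mouse, with the group mean as a bar. The 3 DNP mice lie above the 3 CON mice for Aif1, Tyrobp and Cd86, CON replicate 2 is the lowest of the 9 mice for 6 of the 9 genes, and Cx3cr1 is highest in BAC replicate 2.

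DNP was compared with CON to ask how the diabetic pain model altered these genes, by edgeR's quasi-likelihood test over all genes with Benjamini-Hochberg adjustment. None of the 9 members passed an adjusted p of 0.05, nor did any other gene (0% of 18501; 2067 genes had an unadjusted p under 0.05, and DESeq2 called 346 genes but no member). The largest difference was that of Cd86, 2.21 ± 0.370 CPM in DNP against 1.05 ± 0.235 in CON (SD, n = 3 each), a log2 fold change of 1.06 (SE 0.28, unadjusted p = 0.0051, adjusted p = 0.313). Aif1 followed with a log2 fold change of 0.98 (SE 0.46, adjusted p = 0.461) and Tyrobp with 0.61 (SE 0.31, adjusted p = 0.494). Cd86 was the only member at an unadjusted p under 0.05, a level that 5.71% of all genes reached as higher in DNP. For Cd86, Aif1 and Tyrobp the groups did not overlap, with DNP higher, as was the case for 9.59% of all genes. The mitochondrial share of the counts was apart in the same way, and its part in these differences was not tested.

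The remaining members overlapped between DNP and CON, and none had an unadjusted p under 0.05. The log2 fold changes in DNP against CON were 0.50 for Trem2, 0.40 for Tmem119, 0.33 for Cd68, 0.23 for Csf1r, 0.16 for P2ry12 and -0.30 for Cx3cr1, with SEs from 0.29 to 0.54. Of the 9 estimates 8 were above 0, with a median of 0.40 against 0.01 over all genes tested. In bulk tissue, more cells of a type and more RNA per cell cannot be told apart.

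These estimates moved when libraries were left out or regional scores were added to the fit. Without CON replicate 2 and BAC replicate 1 the log2 fold change in DNP against CON was 0.98 for Cd86 (adjusted p = 0.497), 0.62 for Aif1, 0.40 for Tyrobp and 0.13 for Trem2, and it was -0.07 for Csf1r. With the scores of the cerebellar and the brainstem lists as covariates, the estimates of 6 of the 9 genes were below 0, from -0.17 for Tmem119 to -0.68 for Csf1r, while those of Cd86 (0.69), Aif1 (0.40) and Cx3cr1 (1.32) were above 0. None passed the adjusted threshold in that fit. The brainstem markers were high in no CON library. In DNP they were high in replicate 1 (388.2 CPM) and not in replicates 2 and 3 (0.613 and 0.328 CPM). The part of the regions in the differences was not tested beyond this fit.

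**Figure D3:**
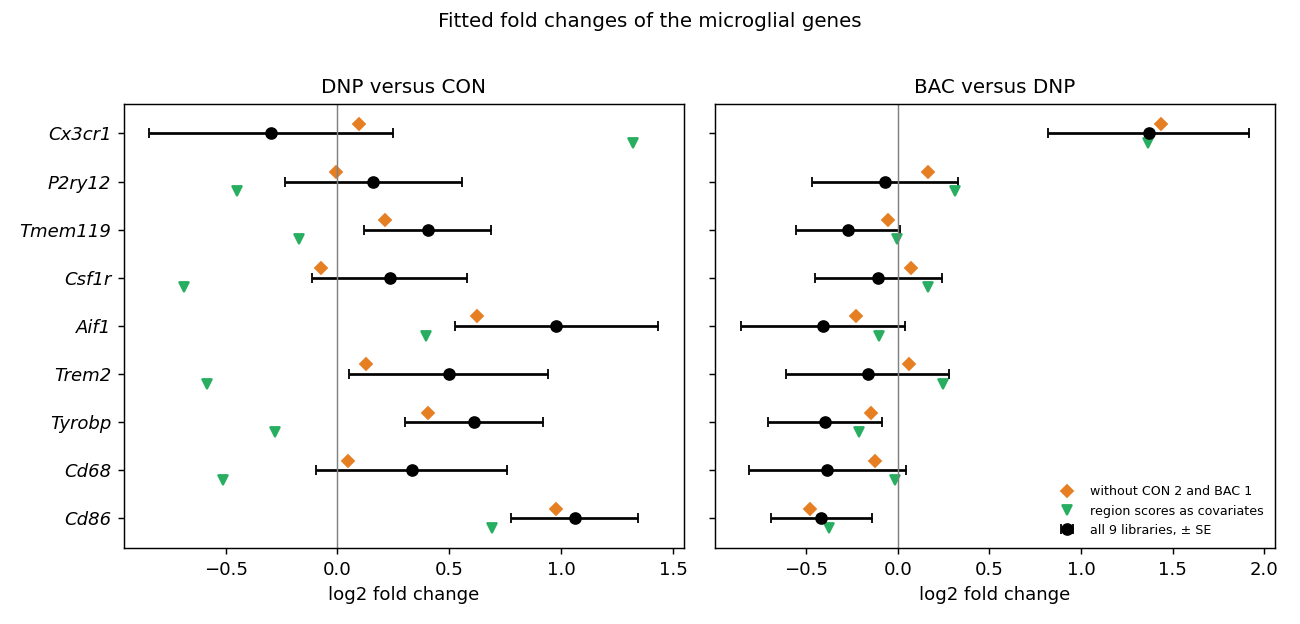
Log2 fold changes of the 9 genes in DNP against CON (left) and BAC against DNP (right); black circles with SE bars are the fit of all 9 libraries, orange diamonds the fit without CON replicate 2 and BAC replicate 1, and green triangles the fit with cerebellar and brainstem scores as covariates. In DNP against CON the green triangles lie left of 0 for 6 genes, and Cd86, at 1.06, 0.98 and 0.69, and Aif1, at 0.98, 0.62 and 0.40, lie right of 0 in each fit.

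Markers of other white blood cells and macrophages summed to at most 32.84 CPM in a library, and those of red blood cells to more. These sums over several genes reached above the levels of the single genes Cd86 (0.912 to 2.62 CPM) and Aif1 (0.996 to 5.11 CPM). Of 12 genes of monocytes and neutrophils 5 passed the filter, and the summed level was 1.325 to 3.506 CPM in CON, 1.573 to 18.65 in DNP and 3.308 to 9.279 in BAC, with Ly6g and Plac8 at 0 in each CON library. The 5 tested genes of this list had estimates above 0 in DNP against CON, with a median log2 fold change of 2.36. Over all genes 51.4% had estimates above 0. Of the 5 genes 2, S100a8 and S100a9, had an unadjusted p under 0.05, a level that 5.71% of all genes reached as higher. Both overlapped between the groups. Genes of border macrophages summed to 20.28 to 27.62 CPM in CON, 18.79 to 32.84 in DNP and 17.4 to 25.16 in BAC (5 of 12 passed the filter), and those of lymphocytes to 1.779 to 15.96, 3.036 to 17.72 and 1.697 to 20.06 CPM (1 of 10 passed). The erythroid genes summed to 187.9 to 217.6 CPM in CON and 476.2 to 682 in DNP. Of them 5 of 5 were higher in DNP without overlap, against 9.59% of all genes. Those of oligodendrocytes summed to 2301 to 3217 CPM in CON and 3869 to 9472 in DNP. The part of blood cells, white or red, of border macrophages and of oligodendrocytes in the levels of the microglial genes was not tested.

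BAC was compared with DNP to ask what baclofen altered in the diabetic brain. No gene passed the adjusted threshold (0% of 18501 genes; 438 had an unadjusted p under 0.05, and DESeq2 called 7, none of them a member). Cx3cr1 was at 30.6 ± 21.6 CPM in BAC and 11.8 ± 3.50 in DNP, a log2 fold change of 1.37 (SE 0.55, unadjusted p = 0.0354, adjusted p = 0.998). It was the only member at an unadjusted p under 0.05, which 1.37% of all genes reached as higher in BAC, and its groups overlapped. Without BAC replicate 2, the library with 776 counts, the log2 fold change of Cx3cr1 was 0.69. The other 8 genes were lower in BAC by estimates of -0.07 for P2ry12 to -0.42 for Cd86, with SEs from 0.28 to 0.45. Tyrobp (log2 fold change -0.40) and Cd86 (-0.42) were lower in each BAC mouse than in each DNP mouse in scaled CPM (for Tyrobp not in raw counts), as were 3.41% of all genes. Leaving out CON replicate 2 and BAC replicate 1 moved Tyrobp to -0.14 and Cd86 to -0.48.

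BAC against CON, and the 6 diabetic mice against CON, use the same CON libraries as above and are given for their own values. In BAC against CON no gene passed the adjusted threshold (0%; 1436 genes at an unadjusted p under 0.05, 101 called by DESeq2). Cd86 was at 1.65 ± 0.149 CPM in BAC, a log2 fold change of 0.64 (SE 0.29, adjusted p = 0.638), and was the only member whose groups did not overlap, with BAC higher as for 7.21% of all genes. In the 6 diabetic mice against CON no gene passed either (0%; 2190 genes at an unadjusted p under 0.05, 360 called by DESeq2). The log2 fold change of Cd86 was 0.85 there (SE 0.25, unadjusted p = 0.0090, adjusted p = 0.330), and it was the only member at an unadjusted p under 0.05, against 6.42% of all genes. It was also the only member with no overlap, against 3.82% of all genes. Aif1 followed with 0.77 (SE 0.41, adjusted p = 0.488), and the other 7 estimates ranged from 0.13 for P2ry12 to 0.41 for Trem2.

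Cx3cr1 stood apart from the other members across the libraries, whatever the group. Over the 9 libraries, Pearson's r of log2 CPM between Cx3cr1 and each of the other 8 genes lay between -0.37 and 0.09 (median -0.10), and between the 28 pairs of the other genes it lay between 0.16 and 0.94 (median 0.78). The points share library depth and brain region, and the values are given as a description. The closest pair was Csf1r and Trem2 (r = 0.94, Spearman's rho = 0.80), while the pairs of Cd86 with the other 7 had r from 0.16 to 0.62. In CON replicate 2 the deviation from the gene's mean was -1.46 log2 units for Trem2 and -1.59 for Aif1, whereas Cx3cr1 was 0.43 above its own mean, and in BAC replicate 1 it was 0.81 above while the 7 genes other than Cd86 were below theirs. As shown above, the Cx3cr1 window lacked the marked letters that the windows of Aif1, Trem2 and Cd68 held. That of P2ry12, which moved with the others, lacked them too. Any part of the letters in the levels was not tested.

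**Figure D4:**
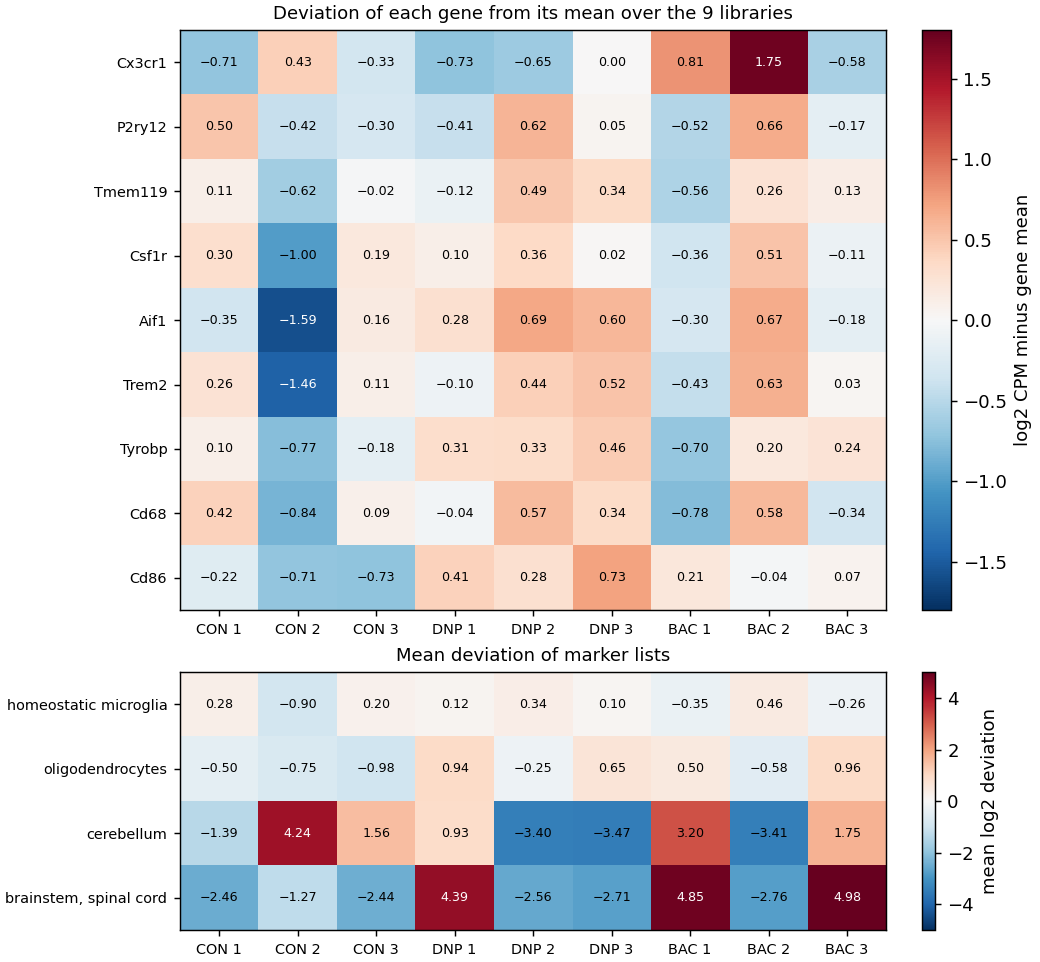
Upper panel, log2 CPM of each gene minus its mean over the 9 libraries; lower panel, mean deviation of the homeostatic microglia, oligodendrocyte, cerebellar and brainstem lists. CON replicate 2 is low for each gene but Cx3cr1 (0.43) and has the highest cerebellar deviation (4.24), and BAC replicate 2 has the highest Cx3cr1 value (1.75).

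The ligand of Cx3cr1 also varied between libraries of a group. Counts of Cx3cl1, which encodes the neuronal chemokine fractalkine, were 1452, 1767 and 1258 in CON, 409, 927 and 1008 in DNP and 254, 1050 and 2866 in BAC. Its 3 DNP mice lay below the 3 CON mice (log2 fold change -0.96, SE 0.67, adjusted p = 0.621), as was the case for 8.63% of all genes. Adam10, the protease that sheds fractalkine, had a log2 fold change of -0.64 in DNP against CON (SE 0.25, unadjusted p = 0.0310, adjusted p = 0.402), with no overlap. In the list of 13 fractalkine and purinergic genes it was the only one at an unadjusted p under 0.05, a level that 5.46% of all genes reached as lower. For this list 9 estimates were above and 4 below 0, with a median of 0.13.

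Set against the other microglial genes of the same library, Aif1 had the largest difference of the 9 members in DNP against CON and in the diabetic mice against CON, and Cx3cr1 in both comparisons of BAC. For this, the mean log2 CPM of the 15 homeostatic genes was subtracted from that of each member, which removes a difference shared by microglial genes. Aif1 then lay at -2.63, -2.69 and -2.04 in CON, -1.84, -1.65 and -1.50 in DNP and -1.95, -1.80 and -1.92 in BAC. Each diabetic mouse was above each CON mouse, by a mean of 0.68 (exact two-sided permutation test, 6 against 3 mice, p = 0.0119, the smallest that 6 against 3 mice can give, and 0.429 after Benjamini-Hochberg adjustment over the 36 such tests). The differences of Aif1 were 0.79 in DNP against CON and 0.57 in BAC against CON (exact permutation p = 0.10 each, the smallest that 3 against 3 mice can give). On this scale 0.562% of all genes were higher without overlap in the diabetic mice, 1.16% in DNP and 1.57% in BAC, and 2.46%, 10.4% and 5.27% were lower. The list itself was lowest in CON replicate 2, at -0.899 from its mean. Subtracting it raises, in that CON library, the genes that do not follow the list. The share that is higher is held down for such genes and is no like background for a member that follows the list. Without CON replicate 2 and BAC replicate 1 the difference in DNP against CON was 0.67 for Aif1, 1.01 for Cd86 and 0.46 for Tyrobp. Aif1 was thus not the largest there. The 3 genes did not overlap, with only 2 CON mice left. Before the subtraction, 16.5% of all genes were higher without overlap in that smaller set, and the share after it is not given here. Cx3cr1 differed by 1.35 in BAC against DNP (exact permutation p = 0.20) and by 0.77 in BAC against CON (exact permutation p = 0.40), with overlap in both. With the summed CPM of the 15 genes as the reference in place of their mean log2 CPM, no member was free of overlap in the diabetic mice.

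The other members mostly followed the list. Csf1r kept to it most closely, with relative log2 values (mean ± SD of 3 mice) of 2.58 ± 0.06 in the CON group, 2.59 ± 0.05 in the DNP group and 2.68 ± 0.08 in the BAC group. Cd86 lay at -3.40 ± 0.56 in CON and -2.77 ± 0.42 in the 6 diabetic mice, a difference of 0.62 (exact permutation p = 0.0833), and Trem2 differed by 0.34 (exact permutation p = 0.119). Tyrobp, whose groups were apart before the subtraction, overlapped after it in DNP against CON, at -0.64 ± 0.19 and -0.96 ± 0.25. Cx3cr1 had the widest spread, from -0.68 in CON replicate 1 to 1.64 in CON replicate 2.

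**Figure D5:**
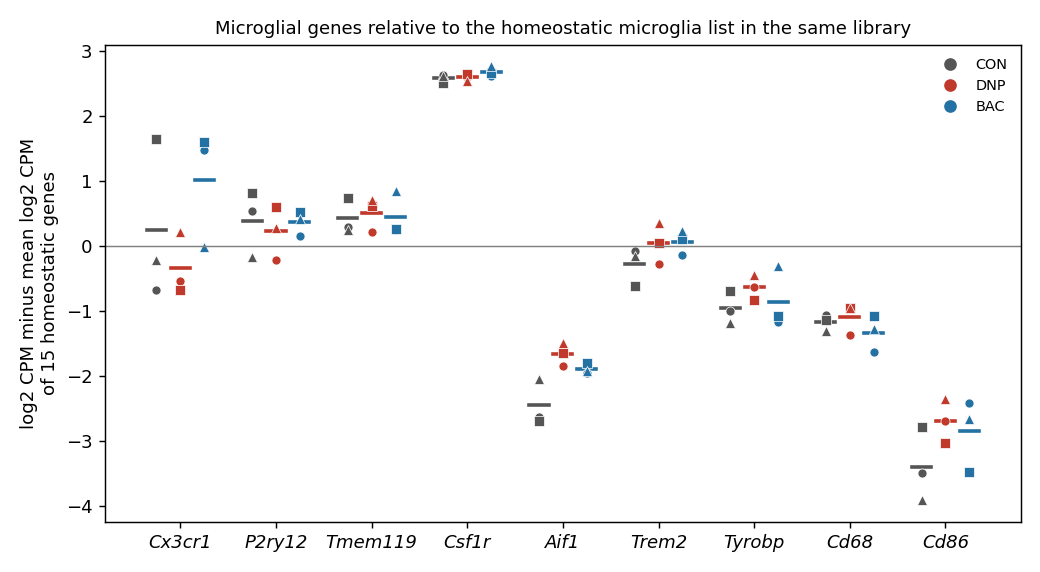
Log2 CPM of each gene minus the mean log2 CPM of 15 homeostatic microglia genes in the same library, 1 point per mouse (circle, square and triangle for replicates 1, 2 and 3) with group means as bars. Aif1 in CON (-2.69 to -2.04) lies below the 6 diabetic mice (-1.95 to -1.50), and Csf1r stays between 2.51 and 2.76.

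The homeostatic list had more estimates above 0 than below in DNP. Of its 15 genes 13 had estimates above 0 and 2 below in DNP against CON, with a median log2 fold change of 0.19, and 2 were higher at an unadjusted p under 0.05, Siglech and Sall1. Over all genes tested 51.4% had estimates above 0 and 5.71% were higher at that level. Without CON replicate 2 and BAC replicate 1 the direction of the list turned, with 4 estimates above and 11 below 0, a median of -0.06 and none (0) at an unadjusted p under 0.05. Counts of Siglech, a lectin of microglia, were 81, 64 and 82 in CON, 138, 171 and 101 in DNP and 90, 126 and 71 in BAC (log2 fold change 0.85 in DNP against CON, SE 0.30, adjusted p = 0.382). Counts of Sall1, the transcription factor that maintains microglial identity, were 406, 179 and 345, then 432, 1159 and 428, then 374, 641 and 541 in the same order of groups (1.12, SE 0.44, adjusted p = 0.412). DNP lay above CON without overlap for both.

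Among genes of the disease-associated state, most estimates were above 0 in DNP. Of 20 listed 18 were tested, 17 had estimates above 0, 6 were higher at an unadjusted p under 0.05 and 8 without overlap, with a median of 0.35. Over all genes these shares were 51.4%, 5.71% and 9.59%. None passed the adjusted threshold. Ch25h, which hydroxylates cholesterol, had counts of 5, 3 and 5 in CON, 56, 31 and 9 in DNP and 16, 38 and 29 in BAC (log2 fold change 2.87 in DNP against CON, SE 0.71, adjusted p = 0.300). Lyz2, the lysozyme of macrophages, had 55, 80 and 73 counts in CON, 194, 163 and 110 in DNP and 163, 133 and 200 in BAC (1.16, SE 0.29, adjusted p = 0.306). Both stayed above CON in each BAC mouse. Cd9, a tetraspanin also made by oligodendrocytes, had a log2 fold change of 0.63 (SE 0.17, adjusted p = 0.312), and 8 of 8 oligodendrocyte markers had estimates above 0 in the same comparison. Apoe, a lipid carrier made mostly by astrocytes and a ligand of Trem2, had 10270, 6001 and 7962 counts in CON and 10044, 12617 and 11118 in DNP, which overlapped as raw counts and not after scaling (0.48, SE 0.21, adjusted p = 0.457).

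Of the Trem2 and Tyrobp pathway 15 of 17 listed genes were tested, and 14 had estimates above 0 in DNP against CON, with a median of 0.52. At an unadjusted p under 0.05, 4 were higher, and 7 did not overlap, against 5.71% and 9.59% of all genes. Fcer1g, an adaptor like Tyrobp that serves Fc receptors, had 61, 40 and 63 counts in CON, 75, 120 and 110 in DNP and 64, 106 and 91 in BAC (log2 fold change 0.88, SE 0.28, adjusted p = 0.355). Plcg2, the phospholipase that acts below Trem2, had 59, 35 and 59, then 102, 92 and 79, then 76, 60 and 90 counts (0.84, SE 0.27, adjusted p = 0.360). Both were higher in each DNP mouse than in each CON mouse. Siglech is the other gene of this list named by the rule and has its values above.

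Of the Csf1r pathway and the transcription factors of microglia, 12 of 14 had estimates above 0 and the median was 0.29. The ligands of Csf1r overlapped between the groups. Counts of Csf1 were 305, 354 and 317 in CON, 427, 306 and 449 in DNP and 471, 273 and 528 in BAC, and those of Il34 were 655, 156 and 643, then 245, 721 and 544, then 152, 684 and 238. The log2 fold change of Csf1 was 0.26 in DNP against CON (SE 0.25, adjusted p = 0.744). Il34 was lowest in CON replicate 2 and in the 3 libraries with high brainstem markers, at 152 to 245 counts, and its log2 fold change was 0.04 (SE 0.68, adjusted p = 0.988), or -0.37 without CON replicate 2 and BAC replicate 1. Cbl, a ubiquitin ligase that takes Csf1r off the membrane, was lower in each DNP mouse, with 1606, 1223 and 1645 counts in CON, 1073, 1052 and 1095 in DNP and 1240, 1366 and 1275 in BAC (-0.48, SE 0.14, adjusted p = 0.332). BAC lay above DNP without overlap for Cbl (0.26, SE 0.14, unadjusted p = 0.104), as for 3.38% of all genes.

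Of 21 phagocytosis and lysosome genes 20 were tested, 17 had estimates above 0 in DNP against CON, 3 were higher at an unadjusted p under 0.05 and 6 without overlap (median 0.22), against 51.4%, 5.71% and 9.59% of all genes. The lysosomal proteases Ctsz (0.47, SE 0.14, adjusted p = 0.335) and Ctss (0.68, SE 0.23, adjusted p = 0.365) and the endotoxin co-receptor Cd14 (1.01, SE 0.33, adjusted p = 0.363) were the 3. Ctss had 581, 330 and 555 counts in CON, 898, 712 and 731 in DNP and 642, 808 and 952 in BAC. Each diabetic mouse was thus above each CON mouse for Ctss.

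The partners of Cd86 were near the limit of detection. Counts of Cd28, its activating receptor on T cells, were 3 to 14 in the 9 libraries, and those of Ctla4, its inhibitory receptor, were 0 to 4, and neither passed the filter. A count of 0 allows up to 3 counts, for counting error only. Of the 15 genes of co-stimulation and antigen presentation 11 were tested, 8 had estimates above 0, 3 were higher and 1 lower at an unadjusted p under 0.05 in DNP against CON (median 0.32), against 5.71% and 5.46% of all genes. H2-Ab1, a chain of class II molecules, had 24, 24 and 27 counts in CON, 59, 38 and 43 in DNP and 34, 50 and 68 in BAC (log2 fold change 0.89, SE 0.31, adjusted p = 0.376). Ciita, the coactivator that turns on class II genes, went the other way, with 28, 37 and 37, then 16, 24 and 21, then 16, 21 and 22 counts (-0.76, SE 0.28, adjusted p = 0.387). B2m, the light chain of class I molecules, had a log2 fold change of 0.42 (SE 0.16, adjusted p = 0.392).

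Cytokine genes of activated microglia gave little signal. Of 18 listed genes 9 passed the filter, among which 4 had estimates above and 5 below 0 in DNP against CON, with a median of -0.14, and the untested ones included Tnf, Il1b and Il6. The smallest p was that of Tlr2, a receptor of bacterial lipoproteins, with 11, 16 and 14 counts in CON, 56, 20 and 16 in DNP and 54, 26 and 58 in BAC (1.17, SE 0.56, adjusted p = 0.472). Nos2, inducible nitric oxide synthase, had a log2 fold change of -0.95 (SE 0.52, adjusted p = 0.522) and Myd88, an adaptor of Toll-like receptors, 0.28 (SE 0.20, adjusted p = 0.627). Of 9 proliferation genes 6 were tested, and Mcm5 (-0.82, SE 0.36, adjusted p = 0.446), Birc5 (0.78, SE 0.40, adjusted p = 0.497) and Pcna (0.26, SE 0.15, adjusted p = 0.547) showed no common direction.

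Without CON replicate 2 and BAC replicate 1, most estimates stayed above 0 in DNP against CON in some of the other microglial gene lists, and not in the cytokine list. In the disease-associated list 16 of 18 estimates were above 0, with a median of 0.43 and 4 genes higher at an unadjusted p under 0.05. The Trem2 and Tyrobp list had 12 of 15 above 0 with a median of 0.25 and 3 such genes, and the phagocytosis list 18 of 20 with a median of 0.16 and 2 such genes. The co-stimulation list had 10 of 11 above 0 (median 0.45, 3 such genes) and the Csf1r list 10 of 14 (median 0.28, none). In the fractalkine and purinergic list 7 of 13 were above 0 (median 0.05). The proliferation list had 4 of 6 above 0 (median 0.27) and the cytokine list 3 of 10 (median -0.13). Several genes, Apoe, Ctsb and B2m among them, are in more than 1 of these lists, so the lists are not independent. The disease-associated and the phagocytosis lists share several genes. In this fit 53.8% of all 18810 genes were above 0, 4.58% were higher at that level and the median was 0.04. No gene of these lists passed the adjusted threshold, nor did any other gene. The log2 fold changes were 0.72 for Fcer1g, 0.64 for Plcg2, 0.48 for Ctss, 0.76 for Siglech and -0.80 for Cx3cl1, and the last 2 had unadjusted p-values of 0.080 and 0.134.

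Among 16774 genes with a mean of at least 1 CPM, the 10 whose pattern over the 9 libraries was most like the mean of the members were Gpsm2, Spint1, Gm11942, Crybb1, Cyth4, 2010204K13Rik, Isl1, Gm6311, Scube3 and Cst3. Pearson's r to that mean ran from 0.980 for Gpsm2 (Spearman's rho = 0.883) to 0.971 for Cst3 (rho = 0.917). None of the 10 is in the microglial lists used here, which hold only part of the genes made by microglia. Without Cx3cr1, Spint1 was the closest to the mean of the other 8 members (r = 0.992). Laptm5, of the phagocytosis and lysosome list, was among the 10 closest there (r = 0.973, rho = 0.95). For Cx3cr1 alone, which the mean of the members represents poorly, the closest gene was 4933407K13Rik (r = 0.920, rho = 0.917), followed by Rufy1 (r = 0.882, rho = 0.900). After the group means were taken out, the closest gene to the mean of the members was Klhl2 (r = 0.999, rho = 0.983). These likenesses are over 9 libraries that share depth and region and are given without a test.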

How the data were processed

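Poly(A) RNA of whole brain from 9 mice was sequenced by the authors as non-strand-specific paired-end libraries. Per the labels and the methods, reads were checked with FastQC 0.11.9, filtered with fastp, cleared of ribosomal reads with Bowtie2 2.3.4.1, aligned to GRCm38 with HISAT2 2.1.0 and quantified with StringTie 1.3.3b. The authors deposited raw counts per gene and FPKM values. Each FPKM equals the count divided by a gene length and the library total (14125 genes checked), so it carries no TMM factor. Groups were taken from the sample labels.

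Counts were analysed in R 4.3.3. Genes kept by filterByExpr (minimum count 10) were fitted by the quasi-likelihood test of edgeR 4.0.16 after TMM normalization, all 9 libraries together with group as the factor, and p-values were adjusted by Benjamini-Hochberg over 18501 genes. The p-values measure the spread between the mice sequenced. Log2 CPM used a prior count of 1. The pipeline was tested on simulated data. The alternatives were DESeq2 1.42.0, the method of the study, limma 3.58.1 on log2(FPKM + 1) or log2(FPKM + 0.1), other scalings and filters, a replicate block, region covariates and leaving out libraries. The members and the 20 gene lists were chosen with earlier results of these data known. Named genes are the members, the 3 smallest p-values of each microglial list in DNP against CON, the ligands and receptors of members, and the 10 most alike in pattern. Of these, 1 gene is not reported here. Genes of other cell type and region lists were named where a library had 0 counts. Tnf, Il1b, Il6, S100a8 and S100a9 were named after their values were seen. Figures were drawn with matplotlib 3.10.9.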

Additional observations from a re-analysis of the deposited data

How the results depend on the processing

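No member passed an adjusted p of 0.05 under any alternative that gave one. The lowest was 0.143, for Cd86 in DNP against CON by DESeq2, which gave Cd86 no adjusted p in the diabetic mice against CON. The log2 fold changes of Cd86 and Aif1 stayed above 0 in DNP against CON under each alternative. DESeq2 called 346 genes in DNP against CON, 7 in BAC against DNP, 101 in BAC against CON and 360 in the diabetic mice against CON, where edgeR called 0 in each, and it put 2 members rather than 1 at an unadjusted p under 0.05 in DNP against CON. The cause of this difference between the tools was not tested. Scaling by library totals alone put 2 members there in DNP against CON and 1 in BAC against CON, and moved Cd68 in BAC against CON to 0.0098 log2 units. With limma on log2(FPKM + 1) the members were 3 in DNP against CON, 0 in BAC against DNP and 2 in the diabetic mice, and with log2(FPKM + 0.1) they were 3, 0 and 2, with 1 in BAC against CON.

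No pairing of the mice by replicate number was seen, as only 3 of 9 same-number pairs had correlated deviations over 0.1 (range -0.561 to 0.552). The libraries also differ in brain region, and libraries of unlike number reached 0.594 (CON replicate 2 with BAC replicate 1). The check thus cannot settle whether mice were paired. With replicate number as a block, edgeR called 0 genes in each comparison, no member was at an unadjusted p under 0.05 in BAC against DNP (0, against 1 without the block), P2ry12 in BAC against CON moved to -0.0042, and no other call changed.

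With the cerebellar and brainstem scores as covariates, 1 gene was called in each comparison with CON, and 0 members in DNP against CON and 1 in BAC against CON were at an unadjusted p under 0.05. Log2 fold changes that turned direction in DNP against CON were Cx3cr1 (1.32), P2ry12 (-0.45), Tmem119 (-0.17), Csf1r (-0.68), Trem2 (-0.58), Tyrobp (-0.28) and Cd68 (-0.51). In BAC against DNP they were P2ry12 (0.32), Csf1r (0.16) and Trem2 (0.25), and in BAC against CON P2ry12 (-0.14), Tmem119 (-0.18), Csf1r (-0.52), Trem2 (-0.34) and Tyrobp (-0.49). In the diabetic mice against CON they were P2ry12 (-0.29), Tmem119 (-0.18), Csf1r (-0.60), Trem2 (-0.46), Tyrobp (-0.38) and Cd68 (-0.52).

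Without both CON replicate 2 and BAC replicate 1, a choice made after the values were seen, Cx3cr1 (0.096), P2ry12 (-0.0044) and Csf1r (-0.073) turned in DNP against CON, and P2ry12 (0.16), Csf1r (0.070) and Trem2 (0.061) in BAC against DNP. Csf1r in BAC against CON was then -0.0028, and in the diabetic mice Csf1r was -0.038 and Cd68 -0.012. No member (0) was at an unadjusted p under 0.05 in BAC against DNP or in the diabetic mice. The median of the homeostatic list in DNP against CON turned from 0.19 to -0.06.

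With each of the 9 libraries left out in turn, the genes called were 0 to 1 in DNP against CON, in BAC against CON and in the diabetic mice, with the 1 gene seen only when a CON library was left out. Members at an unadjusted p under 0.05 were 1 to 2 in DNP against CON and in the diabetic mice, and 0 to 1 in BAC against DNP and in BAC against CON. In DNP against CON the log2 fold changes ranged from -0.57 to 0.085 for Cx3cr1, from -0.16 (without DNP replicate 2) to 0.51 for P2ry12 and from -0.082 to 0.45 for Csf1r. In BAC against DNP they ranged from -0.49 to 0.24 for P2ry12, from -0.40 to 0.068 for Csf1r and from -0.49 to 0.059 for Trem2. In BAC against CON they ranged from -0.33 to 0.44 for P2ry12, from -0.061 to 0.34 for Tmem119, from -0.18 to 0.35 for Csf1r, from -0.040 to 0.62 for Trem2 and from -0.54 to 0.23 for Cd68. In the diabetic mice they ranged from -0.083 to 0.47 for P2ry12, from -0.13 to 0.40 for Csf1r and from -0.15 to 0.42 for Cd68. Leaving out CON replicate 2 turned Cx3cr1, P2ry12 and Csf1r in DNP against CON, P2ry12, Tmem119, Csf1r and Trem2 in BAC against CON, and P2ry12, Csf1r and Cd68 in the diabetic mice. Leaving out BAC replicate 1 turned P2ry12, Csf1r and Trem2 in BAC against DNP and Cd68 in BAC against CON, BAC replicate 2 turned P2ry12, Tmem119 and Csf1r in BAC against CON and P2ry12 and Cd68 in the diabetic mice, and DNP replicate 2 turned P2ry12 in each comparison it entered and Csf1r in BAC against DNP. Cd68 in BAC against CON turned also without CON replicate 1 or 3 or BAC replicate 3, and P2ry12 turned without CON replicate 3 in BAC against CON and without BAC replicate 3 in BAC against DNP.

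Relative to the homeostatic list, the members above the other group without overlap were 1 to 3 in DNP against CON and in BAC against CON, 0 to 1 in BAC against DNP and 1 to 2 in the diabetic mice when each library was left out. In BAC against CON they were 2 with the reference list without Sall1 and 0 with summed CPM, against 1 with the full list, and in the diabetic mice 0 with summed CPM. The share over all genes is not given for these sets, so the counts are not read as a result about the members. Before the subtraction, that share in DNP against CON was 9.59% with all libraries and 16.5% without CON replicate 2 and BAC replicate 1. In BAC against CON it was 7.21% and 20.5%. Precision is limited by 3 mice a group, a biological coefficient of variation of 36.5% and low counts, 13 to 40 for Cd86 and 14 to 75 for Aif1. Of the recomputed values 790 kept their direction and side of the threshold, 60 turned direction, while 46 counts rose and 12 fell.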
